A study of Mus musculus with 21 samples.

Results

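The Bcl2 family of apoptosis regulators was followed through 9 genes, Bcl2l11, Mcl1, Bcl2, Bcl2l1, Bax, Bak1, Bid, Bad and Bnip3l. A gene was taken where a probe set (a group of short array probes for a transcript) carried its symbol and no other in the platform annotation, and where it had several, the brightest on average over all arrays stood for it. This left 7 of the 9 genes, with 22 probe sets, among 12393 genes and 20380 probe sets with a single symbol. No probe set carried Bax alone, and the 3 probe sets of Bnip3l were shared with its pseudogene, so these 2 genes were not analysed here. The other probe sets of 6 members served as a check, and Bcl2 had 1 probe set.

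Messenger RNA was profiled in RAW 264.7 cells, an established macrophage-like mouse tumour line, 2 h after amorphous silica was added in serum-free medium. Particles of 10 nm were given at 5, 20 and 50 µg/ml and particles of 500 nm at 250, 500 and 1000 µg/ml, and within each size these are named low, mid and high. The single control was untreated cells. There were 7 groups of 3 arrays, or 21 arrays. The labels give no genetic change or other agent in any group. They do not say whether untreated cells were also moved to serum-free medium, so in comparisons with untreated cells an effect of that change and one of the particles cannot be told apart. All dosed groups were in serum-free medium, so comparisons between doses or sizes do not carry that limit. All comparisons with untreated cells share the same 3 control arrays. The study asked how macrophages respond to silica nanoparticles, and the comparisons give the doses against untreated cells, the sizes against each other and the doses within a size.

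Proteins of this family decide whether the outer membrane of the mitochondrion stays closed. Guardians such as Bcl2, Bcl-xL (from Bcl2l1) and Mcl1 bind and hold back the pore formers Bax and Bak (from Bak1), while the BH3-only proteins, among them Bim (from Bcl2l11), Bid and Bad, sense stress and either occupy the guardians or act on the pore formers. Once pores open, cytochrome c leaves the mitochondrion and caspases are activated. In macrophages Mcl1 is known as a short-lived survival protein, and Bid as a link from caspase 8 to the mitochondrion.

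The promoters of Bcl2l11 and Bid are shown because these genes had the clearest rise and fall. RefSeq windows (GRCm38.p6) of 250 bases before a transcript start were matched by symbol for all 7 measured members. Bcl2l11 lies on the plus strand of chromosome 2 and has 2 windows, chr2:128125788-128126037, just before the annotated gene, and chr2:128127325-128127574, before a later start within it. Bid lies on the minus strand of chromosome 6, with the window chr6:120916825-120917074, which spans the annotated 5′ end of the gene. The strand of the gene is printed 5′ to 3′, and the capitals mark a forkhead motif, GTAAACA.
Bcl2l11 window 1: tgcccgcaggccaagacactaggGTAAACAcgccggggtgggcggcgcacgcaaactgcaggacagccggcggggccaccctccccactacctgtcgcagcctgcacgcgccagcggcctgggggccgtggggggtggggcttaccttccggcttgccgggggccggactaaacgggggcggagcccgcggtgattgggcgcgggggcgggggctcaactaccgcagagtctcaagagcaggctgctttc
Bcl2l11 window 2: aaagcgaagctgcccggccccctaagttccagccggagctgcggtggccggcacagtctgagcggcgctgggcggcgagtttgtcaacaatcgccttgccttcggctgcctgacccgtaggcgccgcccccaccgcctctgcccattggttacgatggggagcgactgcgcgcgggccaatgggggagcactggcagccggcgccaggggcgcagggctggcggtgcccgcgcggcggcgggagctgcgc
Bid window: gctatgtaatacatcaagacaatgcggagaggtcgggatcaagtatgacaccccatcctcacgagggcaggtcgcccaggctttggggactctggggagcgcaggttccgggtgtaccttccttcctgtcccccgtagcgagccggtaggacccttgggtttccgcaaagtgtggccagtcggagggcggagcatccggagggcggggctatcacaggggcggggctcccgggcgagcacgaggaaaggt
The motif in the first Bcl2l11 window began 227 bases before the start. On both strands, GTAAACA was found in 3.17% of 32851 windows of this length. The other motifs searched, TGACTCA and TGANTCA (AP-1), of which the first is a case of the second, TGACGTCA (CRE) and CACGTG (E box), stood in 4.46%, 6.75%, 1.55% and 6.02% of the windows. None of the 5 was found in the other windows of the 7 measured members. A match is a run of letters only, and no binding was measured here.

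The arrays carried most markers of the labelled cell type. The 9 measured macrophage markers had a median log2 value of 12.19 over all arrays, at the 98.4th percentile of genes, with Csf1r, the receptor of a macrophage growth factor, at 13.30. The lowest of these macrophage markers was Itgam, at 6.02. The markers of T cells, B cells, neutrophils, fibroblasts and epithelial cells had medians from 3.98 to 4.52. The highest of them, the T cell gene Cd3e, stood at 6.40, above Itgam. Arrays of one group correlated at 0.983 to 0.998 across genes, which are not independent replicates, and no pair was identical. Replicate 3 had the narrowest spread of values in each of the 7 groups, with an SD of 2.41 to 2.58 against 2.53 to 2.64 on the others. The part of that difference in the results was not tested, and changed calls of the members and named genes without these arrays are given beside them. The labels do not name the replicates as separate cultures, so the p-values reflect how these arrays vary, and that variation may be technical.

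Bcl2l11 rose and Bid fell at the 10 nm mid and high doses and at the 500 nm high dose, Bcl2l1 rose slightly at 3 doses, and Bcl2 was called in none of the comparisons. A gene was called at an adjusted p under 0.05 (limma, Benjamini-Hochberg over all genes). In the moderated F test over the 7 groups 3 of the 7 members were called, against 16.2% of all genes, namely Bcl2l11 (adjusted p = 2.35e-06), Bid (0.00021) and Bcl2l1 (0.0437). The Bcl2l1 call was lost without the replicate 3 arrays of all groups (0.111) and with the mean over its probe sets (0.332), and Mcl1 passed in these fits (0.03 and 6.69e-04). The values for the rest were 0.127 for Bad, 0.393 for Mcl1, 0.685 for Bak1 and 0.898 for Bcl2. Among the doses of 10 nm silica, 1 member was called at the low dose (1 higher; 0.767% of all genes called, 0.605% higher), 3 at the mid dose (2 higher and 1 lower; 10.6% of genes, 3.22% higher and 7.39% lower) and 2 at the high dose (1 higher and 1 lower; 20.2%, 7.58% higher and 12.6% lower). For 500 nm silica the counts were 0 at the low dose (0.428% of genes), 0 at the mid dose (2.77%) and 3 at the high dose (2 higher and 1 lower; 15.3%, 5.31% higher and 10.0% lower). The arrays of a dose did not overlap the controls for 1, 4 and 5 members at the 10 nm low, mid and high doses, beside 11.7%, 26.9% and 33.3% of genes. The same counts for 500 nm silica were 1, 3 and 3, beside 12.3%, 17.7% and 31.1%. At an unadjusted p under 0.05, limma gave 1 member at the 500 nm low dose and 2 at the mid dose. The share of all genes at that threshold was not computed, so these counts cannot be set against it. The 2 of 7 members at the 10 nm high dose were a share near that of all genes. At the 500 nm high dose and the 10 nm low and mid doses the share of members was larger, and whether the family stands apart there was not tested. Over the 7 members the median log2 change was 0.20 at the 10 nm high dose and 0.010 at the 500 nm high dose, beside 0.04 and 0.07 over all genes.

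**Figure D1:**
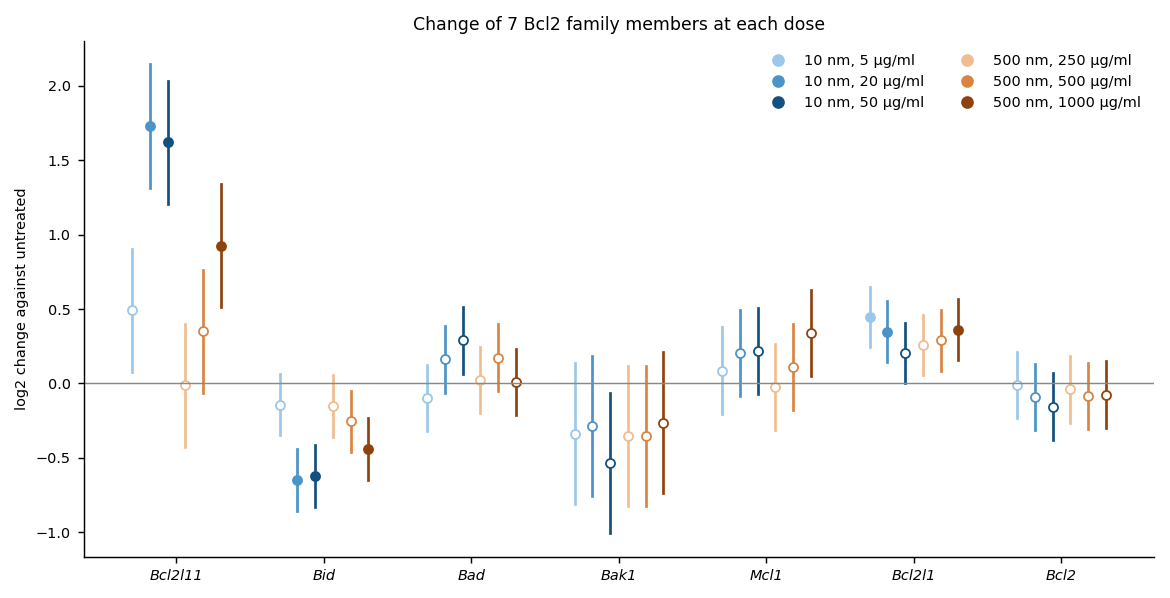
Log2 change of each measured member against untreated cells (y axis) for the 6 doses, shaded from low to high; points are limma estimates from 3 arrays per group, bars are 95% confidence intervals and filled points have an adjusted p under 0.05. Bcl2l11 stands highest, at 1.73, 1.62 and 0.93 for the 10 nm mid, 10 nm high and 500 nm high doses, and Bid is lower at the same doses.

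Bcl2l11 encodes Bim, a BH3-only protein that binds all the guardians. Untreated cells gave log2 values of 8.39, 8.50 and 9.27 on the probe set 1456005_a_at (replicates 1 to 3). The 10 nm mid dose gave 10.30, 10.49 and 10.56, and the 10 nm high dose 10.37, 10.21 and 10.45. All 6 of these treated arrays lay above all untreated ones. The rise was 1.73 ± 0.20 (log2, SE, n = 3 arrays per group) at the mid dose, or 3.32-fold (limma, adjusted p = 4.71e-06), and 1.62 ± 0.20, or 3.08-fold, at the high dose (adjusted p = 9.14e-06). These ranked 49th and 58th among all genes by size of rise.

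At the 10 nm low dose Bcl2l11 gave 9.30, 8.79 and 9.55, which overlapped the controls. The difference was 0.49 (95% confidence interval 0.08 to 0.91; adjusted p = 0.55). It depended on the third control array, and without it the value was 0.77 and passed the test (adjusted p = 0.0454). With 500 nm silica the low dose gave 8.83, 8.59 and 8.71, the mid dose from 8.95 to 9.27 and the high dose 9.65, 9.49 and 9.80. Only the high-dose arrays stood clear of the controls. The change was 0.93 ± 0.20, or 1.90-fold, at the high dose (adjusted p = 0.00284), 0.35 (interval -0.06 to 0.77) at the mid dose and -0.01 (interval -0.43 to 0.40) at the low dose. The high-dose call was lost when only the 2 groups compared were fitted (adjusted p = 0.0564).

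In order of mean level, Bcl2l11 stood at 8.71 ± 0.12 (log2, SD, n = 3) at the 500 nm low dose, 8.72 ± 0.48 in untreated cells, 9.07 ± 0.18 at the 500 nm mid dose, 9.21 ± 0.39 at the 10 nm low dose, 9.65 ± 0.16 at the 500 nm high dose, 10.34 ± 0.12 at the 10 nm high dose and 10.45 ± 0.13 at the 10 nm mid dose. Each neighbouring pair in that order overlapped in its arrays, except the 500 nm high dose and the 10 nm high dose, which were apart. From the low to the high dose the level rose by 1.13 ± 0.20 for 10 nm silica (limma, adjusted p = 8.57e-04). For 500 nm silica that rise was 0.94 ± 0.20 (limma, adjusted p = 0.00427). With 10 nm silica the mean was no higher at the high dose than at the mid dose.

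The other 4 probe sets of Bcl2l11 moved with the first against untreated cells. All 5 were called higher at the 10 nm mid dose, with changes of 1.25 to 1.73 (9.72% of all single-symbol probe sets called), at the 10 nm high dose, with 1.14 to 1.62 (18.2%), and at the 500 nm high dose, with 0.60 to 1.80 (14.8%). They did not share one order of the particle sizes. On 1426334_a_at, a dim probe set, untreated cells gave 5.35, 5.24 and 4.48, the 10 nm high dose 6.91, 6.58 and 5.85 and the 500 nm high dose 6.59, 7.32 and 6.56. There the 500 nm high dose was the highest group, whereas on the other 4 probe sets both higher doses of 10 nm silica had larger means than it.

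**Figure D2:**
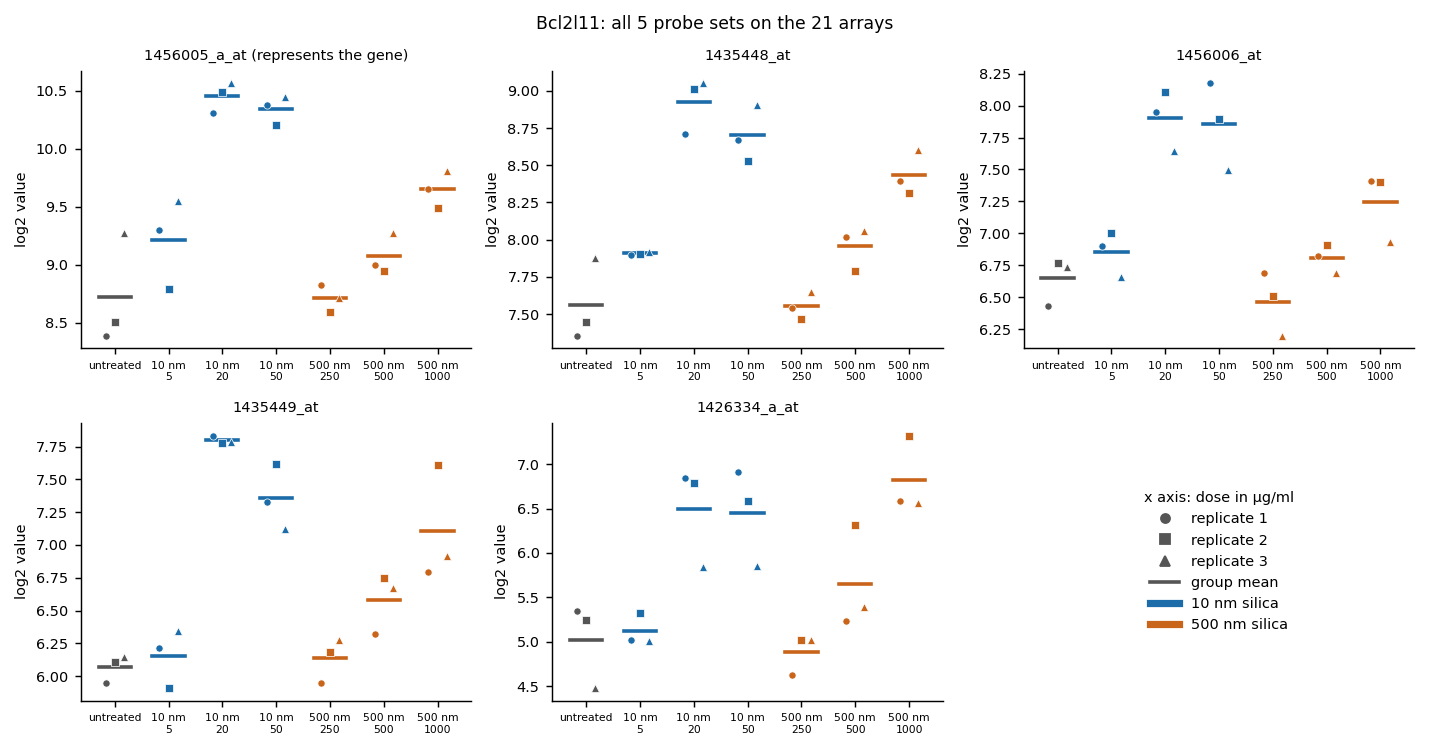
Log2 value of each Bcl2l11 probe set (one panel each, own y axis) on the 21 arrays, by group on the x axis with the dose in µg/ml; symbols are replicates and lines are group means. In 4 panels the 10 nm mid and high doses have the highest means, and in the panel for 1426334_a_at the 500 nm high dose does, at 6.82 against 6.49 and 6.45.

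The comparison of sizes for Bcl2l11 rested on the probe set used. At equal nominal surface area (dose divided by diameter), the 10 nm mid dose was higher than the 500 nm high dose by 0.81 ± 0.20 (limma, adjusted p = 0.0299). In the same test 1 of the 7 members was called (2.85% of all genes, 1.81% higher). Leaving out any 1 of the 6 arrays compared lost the call (adjusted p from 0.0522 to 0.12), with the difference between 0.73 and 0.88, while the fit without the replicate 3 arrays of all groups kept it (adjusted p = 0.0113). At the high doses, where the nominal area differs, Bcl2l11 was higher with 10 nm silica by 0.69 ± 0.20 (adjusted p = 0.0373; 1 of 7 members, 7.52% of genes, 3.37% higher). That call held in 1 of the 6 fits without an array, the one without replicate 3 of the 500 nm high dose (adjusted p from 0.0442 to 0.148 over the 6). Over probe sets, 2 of 5 were called in the first comparison (2.85% of probe sets) and 1 of 5 in the second (6.99%), all higher with 10 nm silica, while 1426334_a_at gave differences of -0.33 and -0.37. At the low doses, of equal nominal area, the difference was 0.50 (interval 0.09 to 0.92; adjusted p = 1) and 0 members were called (0.0888% of genes). At an unadjusted p under 0.05 limma gave 1 member there, with no share of all genes computed at that threshold.

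Bid encodes a BH3-only protein that caspase 8 cuts to its active form. Untreated cells gave 10.24, 10.08 and 10.35 on 1417045_at. The 10 nm mid dose gave 9.61, 9.55 and 9.55 and the 10 nm high dose 9.64, 9.45 and 9.71. Every one of these lay below every control array. Bid fell by 0.65 ± 0.10 at the mid dose, to 1.57-fold lower (limma, adjusted p = 1.40e-04), and by 0.62 ± 0.10 at the high dose, to 1.54-fold lower (adjusted p = 1.60e-04). Both calls held in all 6 fits without 1 array. In a bulk extract a lower level in every cell and a loss from some cells cannot be told apart.

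The 10 nm low dose gave Bid values of 9.98, 10.24 and 10.02, within reach of the controls, and a difference of -0.14 (interval -0.35 to 0.07). With 500 nm silica the values were 10.10, 10.05 and 10.07 at the low dose, 9.99, 10.01 and 9.90 at the mid dose and 9.87, 9.75 and 9.72 at the high dose. The mid and high doses lay below the controls on every array. Only the high dose was called, with a fall of 0.44 ± 0.10, to 1.36-fold lower (adjusted p = 0.00411). Without the replicate 3 arrays of all groups this was a difference of -0.35 that missed the threshold (adjusted p = 0.0674), as did the fit on the 2 groups alone (0.0826). At the mid dose the difference was -0.26 (interval -0.46 to -0.05; adjusted p = 0.249).

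From the highest mean down, Bid stood at 10.22 ± 0.13 in untreated cells, 10.08 ± 0.14 and 10.07 ± 0.025 at the 10 nm and 500 nm low doses, 9.97 ± 0.059 at the 500 nm mid dose, 9.78 ± 0.075 at the 500 nm high dose, 9.60 ± 0.14 at the 10 nm high dose and 9.57 ± 0.036 at the 10 nm mid dose (SD, n = 3). Untreated cells and the low doses overlapped, as did the 10 nm mid and high doses, and the 3 groups of 500 nm silica were separate from each other. The fall from the low to the high dose was called for 10 nm silica (0.48 ± 0.10 lower; adjusted p = 0.00316; 0.105 with only the 2 groups fitted), where 3 of the 7 members were called (2 higher and 1 lower; 11.7% of all genes, 3.05% higher and 8.67% lower). For 500 nm silica the difference between these doses was -0.29 (adjusted p = 0.0826), and 1 member was called, Bcl2l11 (8.20% of genes, 2.83% higher). The arrays of the 2 sizes did not overlap, but the differences missed the threshold, with -0.21 (interval -0.42 to -0.002) for the 10 nm mid against the 500 nm high dose and -0.18 (interval -0.39 to 0.03) at the high doses. The other probe set, 1448560_at, gave differences of -0.52, -0.62 and -0.26 at the 3 called doses, none of them called, with controls that ranged from 8.23 to 9.03.

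Bad, a BH3-only protein held inactive by phosphorylation, had its highest values at the 10 nm high dose. Untreated cells gave 7.66, 7.64 and 7.66 on 1416582_a_at, the 10 nm low dose 7.51, 7.49 and 7.67 and the 10 nm high dose 7.75, 7.92 and 8.15. The high-dose arrays lay above all arrays of both other groups. Against untreated cells the difference was 0.29 ± 0.11 and missed the threshold (limma, adjusted p = 0.063), and it passed after quantile normalization (0.45; adjusted p = 0.0322). Between the 10 nm high and low doses Bad was called, higher by 0.39 ± 0.11 (adjusted p = 0.0229). That call held in 2 of the 6 fits without 1 array and was lost without replicate 1 or 2 of the low dose and replicate 2 or 3 of the high dose (adjusted p from 0.0567 to 0.126 in those 4), and without the replicate 3 arrays of all groups (adjusted p = 0.0769). The second Bad probe set, 1416583_at, gave 0.02 for that comparison, -0.17 at the 10 nm high dose against untreated cells and -0.41 between the high doses, none of them called. At the 500 nm high dose Bad gave 7.58, 7.68 and 7.73, a difference of 0.010 (interval -0.21 to 0.23).

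Bak1 was the only pore former among the 7 measured members. On 1418991_at untreated cells gave 8.22, 8.50 and 8.65 and the 10 nm high dose 8.18, 8.10 and 7.50. The groups were just apart, and the difference of -0.53 had an interval of -1.01 to -0.06 (adjusted p = 0.0997). Over the 6 doses the differences from untreated cells ran from -0.53 to -0.26, none of them called in the main fit. The 10 nm high dose was called in 1 of 15 alternative fits, with the replicate number as a block (limma, adjusted p = 0.0406). The third array of the 10 nm high dose and the second of the 10 nm low dose, at 7.60, were the lowest of the 21. The second probe set, 1425716_s_at, ran from -0.63 to -0.01 over the doses with no call.

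**Figure D3:**
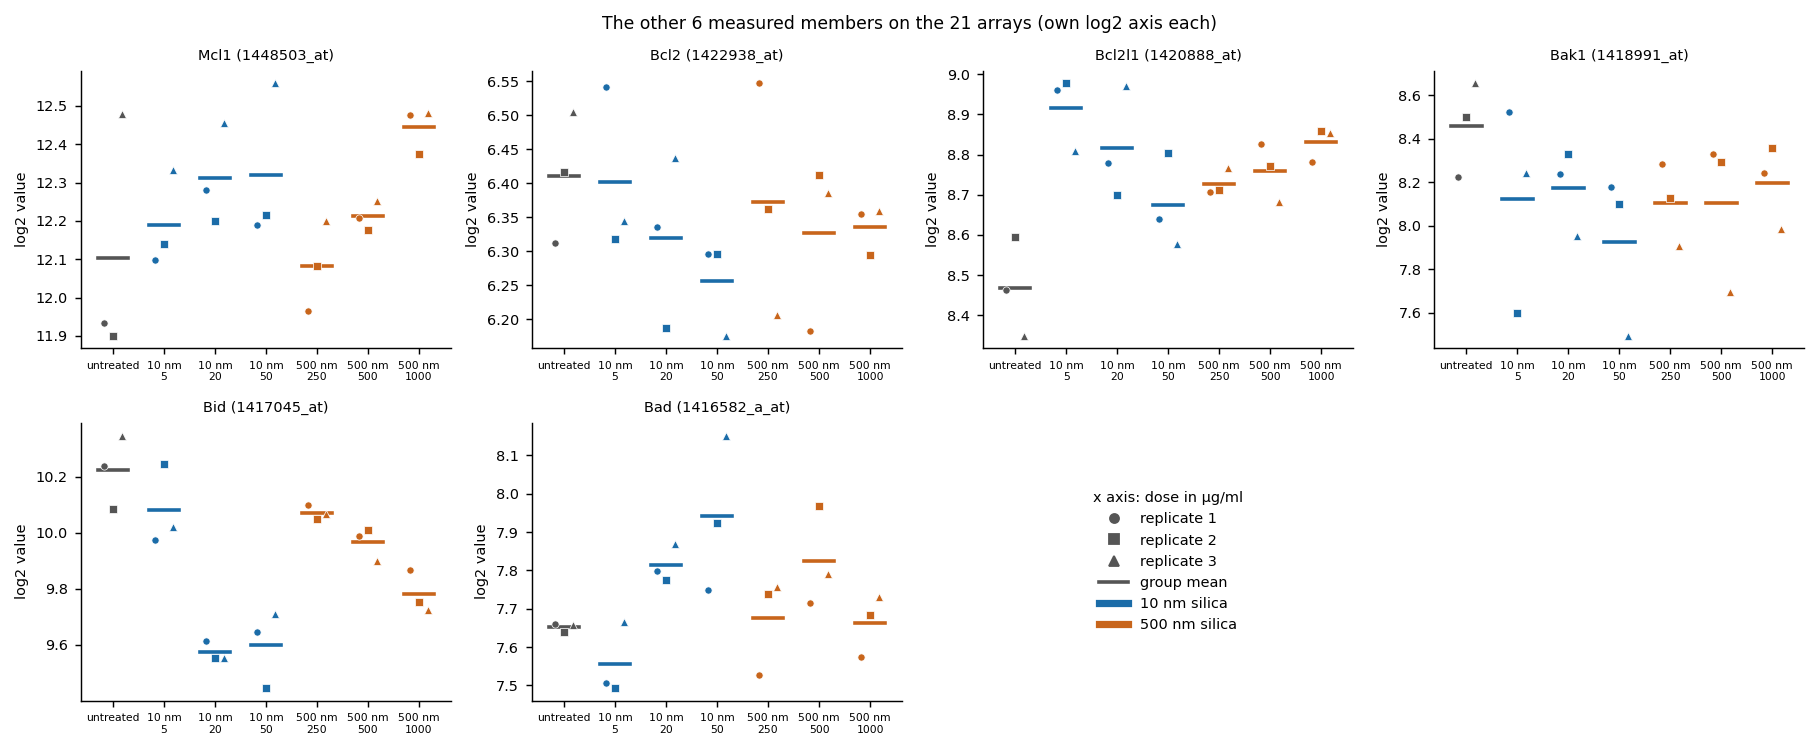
Log2 value of the other 6 measured members on the 21 arrays (own y axis each), by group on the x axis with the dose in µg/ml; symbols are replicates and lines are group means. Bid steps down at the 10 nm mid and high doses, to means of 9.57 and 9.60 from 10.22, and the Bcl2 means stay between 6.26 and 6.41.

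Of the guardians, Bcl2l1, which encodes Bcl-xL, had a higher mean than untreated cells at every dose. Untreated cells gave 8.46, 8.59 and 8.35 on 1420888_at. The 10 nm low, mid and high doses gave 8.96, 8.98 and 8.81, then 8.78, 8.70 and 8.97, then 8.64, 8.80 and 8.58. The low and mid doses lay above all controls, and the high dose overlapped them. Bcl2l1 rose by 0.45 ± 0.10 at the low dose (1.36-fold; limma, adjusted p = 0.0328) and by 0.35 ± 0.10 at the mid dose (1.27-fold; adjusted p = 0.0258), and the high dose gave 0.20 (adjusted p = 0.142), or 0.34 after quantile normalization (adjusted p = 0.0232).

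With 500 nm silica Bcl2l1 gave 8.71, 8.71 and 8.77 at the low dose, 8.83, 8.77 and 8.68 at the mid dose and 8.78, 8.86 and 8.85 at the high dose. All 9 arrays lay above the controls. The test passed at the high dose alone, with a rise of 0.36 ± 0.10 (1.29-fold; adjusted p = 0.0157). The values at the low and mid doses were 0.26 (interval 0.05 to 0.46) and 0.29 (interval 0.09 to 0.50). These calls were not stable. Those at the 10 nm low and mid doses each held in 2 of 6 fits without 1 array. The low-dose call was lost without control replicate 1 or 3 or dose replicate 1 or 2, and the mid-dose call without replicate 1 or 3 of either group (adjusted p up to 0.167 and 0.142). The 500 nm high-dose call held in 4 of 6 and was lost without control replicate 3 (0.0672) or replicate 3 of the dose (0.0509). All 3 were lost without the replicate 3 arrays of all groups (adjusted p = 0.0643, 0.242 and 0.076), and with only the 2 groups fitted (0.48, 0.188 and 0.124). None of the other 3 Bcl2l1 probe sets was called at any dose, and at the 10 nm low dose 2 of them had the opposite sign (-0.46 and -0.33).

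Mcl1 gave different answers by probe set. The one that represents it, 1448503_at, lay at the 98.5th percentile of genes by its mean. Untreated cells gave 11.93, 11.90 and 12.48, the 10 nm high dose 12.19, 12.21 and 12.56 and the 500 nm high dose 12.48, 12.37 and 12.48. The third control array was as high as the treated ones, so the groups overlapped. The differences were 0.22 (interval -0.07 to 0.51) at the 10 nm high dose and 0.34 (interval 0.05 to 0.63; limma, adjusted p = 0.107) at the 500 nm high dose. Without the replicate 3 arrays of all groups, the 500 nm high dose gave 0.51 and passed (adjusted p = 0.00318), as did the difference between the 500 nm high and low doses (0.36 with all arrays, adjusted p = 0.13; 0.40 without them, 0.0181).

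The remaining 5 Mcl1 probe sets did not share one order of the sizes. On 1416880_at untreated cells gave 10.22, 10.17 and 10.18 and the 500 nm high dose 10.20, 10.30 and 10.01. The 10 nm mid and high doses gave 10.65, 10.67 and 10.63, then 10.50, 10.61 and 10.39. Both 10 nm groups stood above the controls, and the 500 nm group was spread around them. On 1416881_at untreated cells gave 10.59, 10.53 and 10.23, the 10 nm high dose 10.89, 10.85 and 10.37 and the 500 nm high dose 11.20, 11.23 and 10.97. Here the 500 nm arrays stood above all others of these groups, and the 10 nm arrays overlapped the controls.

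At the 10 nm mid dose 4 of the 6 Mcl1 probe sets were called higher, with changes of 0.44 to 0.62 (9.72% of all single-symbol probe sets called). The same 4 were called at the 10 nm high dose, with 0.31 to 0.57 (18.2%). At the 500 nm high dose only 1416881_at was called (0.69, limma adjusted p = 0.0101), beside 14.8% of all single-symbol probe sets. Between sizes, 3 probe sets were called higher with 10 nm silica at the high doses (0.33 to 0.42), beside 6.99% of all probe sets. In the comparison at equal nominal area 3 were called higher (0.45 to 0.48), beside 2.85%. On 1416881_at these differences were -0.43 and -0.32, neither called. Without the replicate 3 arrays of all groups the counts between sizes were 0 and 0, while the 10 nm counts against untreated cells were still 4. The share of all probe sets called in that fit is not given here. Of the 4 probe sets called with 10 nm silica, 3 carry the suffix _x_at, by which the maker marks probes that can also match other transcripts, and 1416880_at does not. Which of the 6 reflects Mcl1 messenger RNA best was not tested.

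**Figure D4:**
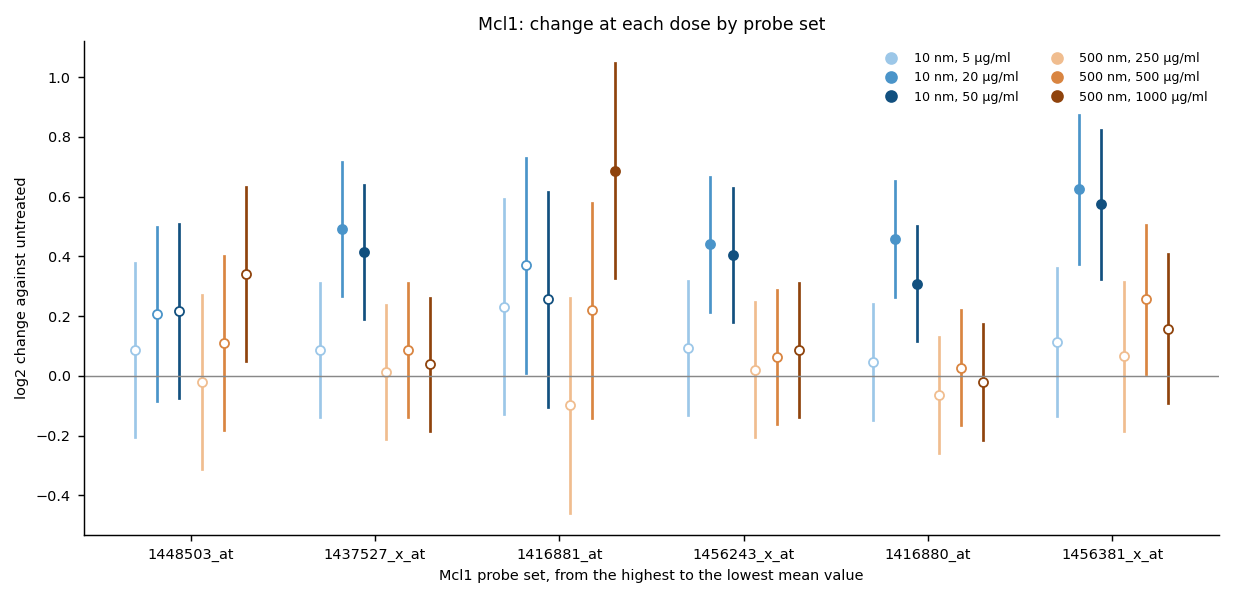
Log2 change of each Mcl1 probe set (x axis, in order of mean level) against untreated cells at the 6 doses; points are limma estimates from 3 arrays per group, bars are 95% confidence intervals and filled points have an adjusted p under 0.05 over all single-symbol probe sets. The 10 nm mid and high doses are filled on 4 probe sets, and the 500 nm high dose is filled on 1416881_at alone.

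Bcl2, the founding guardian, was the dimmest member. Its mean log2 value of 6.35 lay at the 47.3rd percentile of genes. Untreated cells gave 6.31, 6.42 and 6.50, the 10 nm high dose 6.30, 6.30 and 6.18 and the 500 nm high dose 6.35, 6.29 and 6.36. The 10 nm high-dose arrays lay just below the controls, the 500 nm high-dose arrays overlapped them, and the 7 group means spanned 0.16. The largest difference was -0.16 (interval -0.38 to 0.07; limma, adjusted p = 0.302) at the 10 nm high dose. The intervals at the 6 doses reached from -0.38 to 0.21. They are not adjusted for the number of genes, so they set no firm bound on a change that was missed.

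Other members of the family were taken from a list of 17 genes, of which 12 were measured. At the 10 nm high dose 4 rose and 0 fell, and at the 500 nm high dose 2 rose and 0 fell, with list medians of 0.12 and 0.02. Of all genes, 7.58% rose and 12.6% fell at the 10 nm high dose and 5.31% rose and 10.0% fell at the 500 nm high dose, with medians of 0.04 and 0.07. Bbc3 encodes Puma and Pmaip1 encodes Noxa, both BH3-only proteins. Bbc3 rose by 0.94 ± 0.12 at the 10 nm high dose (limma, adjusted p = 1.71e-05) and by 1.06 ± 0.12 at the 500 nm high dose (adjusted p = 4.37e-06). Pmaip1 rose by 1.06 ± 0.23 and 0.90 ± 0.23 (adjusted p = 0.00271 and 0.0105), the second lost without replicate 2 of the 500 nm high dose (0.0545). Neither was called between the high doses, with differences of -0.12 ± 0.12 for Bbc3 and 0.16 ± 0.23 for Pmaip1. Bcl2l14 (0.55; adjusted p = 0.0203) and Bok, a pore-former relative (0.33; adjusted p = 0.0388), were called at the 10 nm high dose, with 0.27 and 0.02 at the 500 nm high dose. Both were lost in most fits without 1 array, Bcl2l14 with adjusted p up to 0.082 and Bok up to 0.138, and Bok also without the replicate 3 arrays of all groups (0.151).

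Of the 23 listed genes of the caspase pathway, which act before, at or after the opening of the pore, 21 were measured. At the 10 nm high dose 1 rose and 9 fell, and at the 500 nm high dose 1 rose and 6 fell, with list medians of -0.32 and -0.17. The shares of all genes that fell were 12.6% and 10.0%, those that rose 7.58% and 5.31%, and the medians 0.04 and 0.07. The gene that rose was Cflar, which encodes c-FLIP, an inhibitor of caspase 8, by 1.24 ± 0.26 and 1.63 ± 0.26 (limma, adjusted p = 0.00223 and 1.94e-04). Of its other 3 probe sets, 1449317_at gave -0.14 at the 10 nm high dose and 0.68 at the 500 nm high dose. Casp2, an initiator caspase, fell by 1.12 ± 0.10 and 0.90 ± 0.10 (adjusted p = 8.67e-08 and 1.65e-06).

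Dffb, the nuclease that cuts DNA in apoptosis, fell by 1.11 ± 0.18 and 0.65 ± 0.18, the second lost without control replicate 2 or without replicate 1 or 3 of the dose (adjusted p up to 0.0807). Birc2, which encodes the ubiquitin ligase cIAP1, fell by 0.69 ± 0.12 and 0.56 ± 0.12, the second lost without the replicate 3 arrays of all groups (-0.37; adjusted p = 0.0726). The related Birc3 fell by 0.67 ± 0.10 at the 10 nm high dose and gave 0.09 at the 500 nm high dose, a difference between sizes of -0.76 ± 0.10 (adjusted p = 1.17e-04). Its other probe set gave 0.24 and -0.04. With the mean over probe sets the size difference of Birc3 was -0.24 and was not called (limma, adjusted p = 0.244). Casp9, the caspase of the apoptosome, fell by 0.72 ± 0.16 and 0.50 ± 0.16, with -0.05 and 0.18 on its other probe set. The second call held in 1 of 6 fits without 1 array (adjusted p up to 0.186), and both were lost without the replicate 3 arrays of all groups (0.0579 and 0.261).

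Among partners and modifiers of the family, 18 of 20 were measured. At the 10 nm high dose 2 rose and 3 fell, and at the 500 nm high dose 1 rose and 3 fell, with list medians of -0.06 and -0.13. The falls, 3 of 18, were near the 12.6% and 10.0% of all genes that fell, and 7.58% and 5.31% of all genes rose. Pim1, a kinase that phosphorylates Bad, rose by 1.35 ± 0.23 and 2.37 ± 0.23 (limma, adjusted p = 3.64e-04 and 6.21e-07), less with 10 nm silica (-1.02 ± 0.23; adjusted p = 0.00948), a call lost without replicate 2 of the 10 nm high dose (0.0611) or replicate 3 of the 500 nm high dose (0.0516). Ppp3ca, the catalytic subunit of calcineurin, which dephosphorylates Bad, fell by 0.60 ± 0.11 and 0.42 ± 0.11, the second lost without replicate 2 of the 500 nm high dose (0.053). The second Ppp3ca call was also lost after quantile normalization (0.138) and with the mean over probe sets (0.217). Fbxw7, which targets Mcl1 for degradation, fell by 0.42 ± 0.10 at the 10 nm high dose and gave -0.13 at the 500 nm high dose. That call was lost without the replicate 3 arrays of all groups (-0.34; adjusted p = 0.0639), after quantile normalization (-0.26; 0.11) and with the mean over probe sets (0.178).

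Dynll1, the dynein light chain that binds Bim, gave -0.09 at the 10 nm high dose and fell by 0.33 ± 0.08 at the 500 nm high dose (limma, adjusted p = 0.00872). The second value lost its call without the replicate 3 arrays of all groups (0.0712), after median centring (0.056) and with the mean over probe sets (-0.14; 0.242). Map1lc3b, an autophagy gene, rose by 0.46 ± 0.12 at the 10 nm high dose (adjusted p = 0.00969) and gave 0.30 at the 500 nm high dose. Its probe set 1428024_at gave 1.12 and -0.10. Becn1, which encodes the guardian-binding autophagy protein Beclin 1, fell by 0.30 ± 0.10 and 0.35 ± 0.10 (adjusted p = 0.0427 and 0.0216), and one of its probe sets gave 0.09 at the 10 nm high dose. The Becn1 calls held in 1 and 2 of the 6 fits without 1 array (adjusted p up to 0.179 and 0.0677), and neither held without the replicate 3 arrays of all groups (0.231 and 0.0882).

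Of the transcription factors listed for their known ties to these genes, 13 of 15 were measured. At the 10 nm high dose 5 rose and 2 fell, and at the 500 nm high dose 6 rose and 1 fell, with list medians of 0.29 and 0.33. Of all genes 7.58% and 5.31% rose, and 12.6% and 10.0% fell, with medians of 0.04 and 0.07. Jun, an AP-1 subunit, rose by 2.71 ± 0.12 and 2.55 ± 0.12 (limma, adjusted p = 8.79e-12 and 2.25e-11). Ddit3, which encodes the stress factor CHOP, rose by 0.56 ± 0.12 at the 10 nm high dose and 2.01 ± 0.12 at the 500 nm high dose, a difference of -1.45 ± 0.12 (adjusted p = 1.53e-07). Rel, an NF-kB subunit, rose by 0.52 ± 0.15 and 1.98 ± 0.15 and also differed (-1.46 ± 0.15; adjusted p = 5.16e-06). The first of these rises held in 3 of 6 fits without 1 array (adjusted p up to 0.0745).

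Mitf fell by 0.67 ± 0.12 with 10 nm silica and gave -0.12 with 500 nm silica, a difference of -0.54 ± 0.12 (limma, adjusted p = 0.00973; 0.0554 without replicate 1 of the 500 nm high dose). Its other probe set gave -0.09 and -0.14. With the mean over probe sets the size difference was -0.25 and was not called (limma, adjusted p = 0.428). Stat3 rose by 0.56 ± 0.12 and 0.41 ± 0.12, and one of its other probe sets gave -0.18 at the 500 nm high dose. The second call held in 3 of 6 fits without 1 array (adjusted p up to 0.104) and was lost with the mean over probe sets (0.17; 0.355). Rela, another NF-kB subunit, rose by 0.29 ± 0.09 and 0.39 ± 0.09, the first lost in 5 of the 6 fits without 1 array, and both without the replicate 3 arrays of all groups (0.0735 and 0.075). The forkhead factors Foxo1 and Foxo3 are known activators of Bcl2l11 and were chosen after their values were seen. Neither was called at either high dose, with -0.16 and -0.36 for 10 nm and -0.30 and -0.10 for 500 nm silica. Only messenger RNA was measured, and whether these factors act on Bcl2l11 here was not tested.

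**Figure D5:**
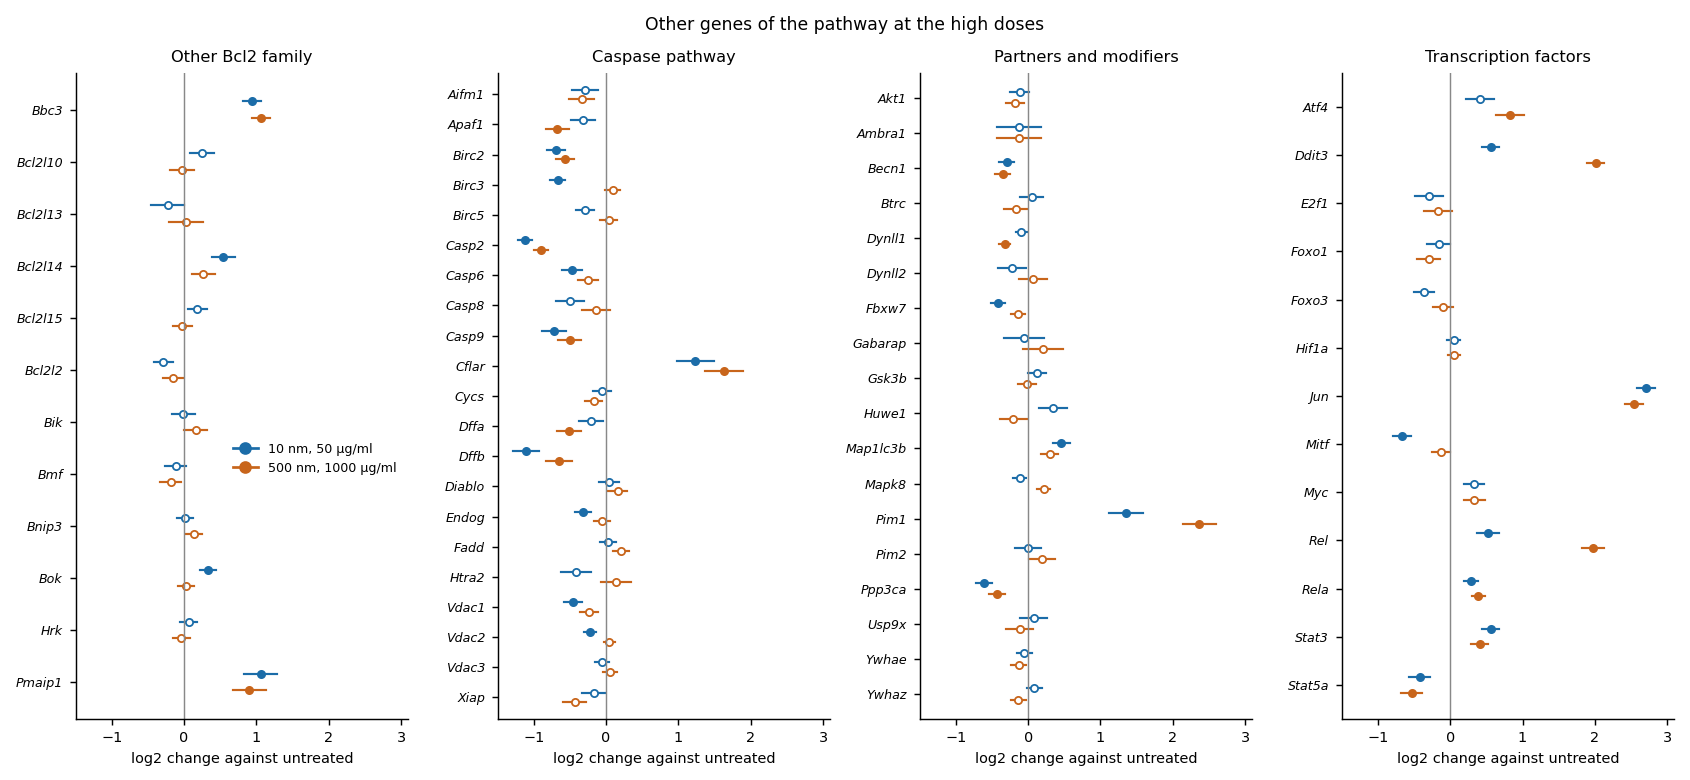
Log2 change against untreated cells (x axis) at the 10 nm and 500 nm high doses for every measured gene of the 4 lists; points are limma estimates from 3 arrays per group, bars are 1 SE and filled points have an adjusted p under 0.05. The caspase pathway lies mostly left of 0 apart from Cflar, and Ddit3, Rel and Pim1 are further right for 500 nm silica.

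The genes with group means most like those of Bcl2l11 were found among 478 other genes whose 7 group means spanned at least 1 log2 unit. By Pearson correlation over the 7 group means they were Metrnl (0.997), Ndrg1 (0.990), Trib1 (0.990), Sertad2 (0.985) and Ier2 (0.984). Their changes at the 10 nm and 500 nm high doses were 1.88 and 1.18 for Metrnl, 2.87 and 1.48 for Ndrg1, 1.74 and 0.85 for Trib1, 1.03 and 0.70 for Sertad2 and 1.83 and 0.96 for Ier2. For Bid, the genes among 479 were Gfi1 (0.997), Zfp61 (0.997), Pnrc2 (0.991), Pdik1l (0.990) and Gucd1 (0.990), whose changes at the 10 nm high dose ran from -2.07 to -0.91. These correlations describe the same 7 means of 3 arrays and share all arrays with the members, so the order of the sizes in these genes follows from how they were chosen.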

How the data were processed

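RAW 264.7 messenger RNA was copied from an oligo-dT primer into labelled RNA and hybridised to 21 one-colour arrays, 3 for each of 7 groups. The authors deposited log10 values, 1 per probe set and array, between 0.641 and 4.34; the submitters' processing notes name RMA, with its version not given in the sources used here. The base was read from the values: the highest would be an intensity of 22019 in base 10, but 20.3 in base 2. The deposited log10 values were turned into log2 values (times 3.32) without further normalization.

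limma 3.58.1 in R 4.3.3 was fitted over all 21 arrays with the group as the only term (14 residual and 4.80 prior degrees of freedom). Tests were two-sided and adjusted by Benjamini-Hochberg over 12393 genes, or over 20380 probe sets where several probe sets of a gene are compared. The median residual SD was 0.184, and 3 arrays per group limit the precision. Confidence intervals are 95%. All measured members are given, and from each list at most the 6 genes with the smallest p at a high dose among those called at either one. The members and lists were chosen with earlier results of these data known. Likeness was computed among genes whose group means spanned at least 1 log2 unit. Same-numbered arrays of different groups were not treated as pairs in the main fit, although many of them deviated together. The fitting was tested on simulated data. Alternatives were quantile normalization, median centring, array weights, a trended and robust prior, the mean over probe sets, leaving out the dimmer genes (the upper 60% kept), fitting only 2 groups, the replicate number as a block, and leaving out arrays. Plots came from matplotlib 3.10.9 (Python 3.11.15).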

Additional observations from a re-analysis of the deposited data

Results flagged for a closer look

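The rise of Bcl2l11 differed between the particle sizes at the high doses, by 0.69 on the log2 scale (10 nm minus 500 nm; limma, adjusted p = 0.0373), the only measured member for which that difference passed the test. The call held in 8 of 15 alternative fits, among them 1 of the 6 without 1 array. It was lost with only the 2 groups fitted (0.0585) and with the mean over probe sets (0.29, adjusted p = 0.114). These groups also differ in mass dose and nominal area, which cannot be told apart from size here. On the probe set 1426334_a_at the difference was -0.37 and was not called.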

How the results depend on the processing

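The calls of Bcl2l11 at the 10 nm mid and high doses, and of Bid at these doses, passed under every alternative fit of the representative probe set that was run, and the trended and robust prior moved no count of called members by over 1.5 times. Counts of called members, of 7, moved as follows. With the replicate number as a block in the fit, 4 were called at the 10 nm high dose. Between the high doses 2 were called, as were 2 between the 500 nm high and low doses. Over all genes the calls in these comparisons went from 2506 to 4544, from 932 to 2071 and from 1016 to 1923. Many same-numbered arrays deviated together from their group means. Of 63 such pairs, 51 correlated above 0.1, in a range from -0.24 to 0.76, and 12 of 21 arrays correlated best with their own number. The main fit has no term for this, and what the numbers stand for was not tested. Quantile normalization and median centring each gave 4 at the 10 nm high dose, and centring moved the median of all genes there from 0.04 to 0.14. Over all 12393 genes the first called 1966 there and the second 2953, against 2506 in the main fit. Array weights, whose estimation stopped before it converged, gave 2 at the 10 nm low dose, 5 at the 10 nm high dose, 3 at the 500 nm mid dose, 1 between the low doses, 2 between the 10 nm mid and 500 nm high doses, 4 between the high doses, 3 between the 500 nm high and low doses and 5 for any difference among groups. Over all 12393 genes the same weights called 6254 at the 10 nm high dose, 4766 between the high doses and 7826 for any difference, so calls rose for all genes and not for the members alone. The mean over probe sets gave 0 at the 10 nm low dose and 1 at the 500 nm mid dose. It gave 1 at the 500 nm high dose and 0 between the high doses. Over all genes it called 103, 407, 2016 and 911 in these comparisons, against 95, 343, 1898 and 932 in the main fit. Without dim genes, 2 were called between the 500 nm high and low doses, beside 1163 of the 7436 genes kept. With only the 2 groups compared, the counts were 0 at the 10 nm low dose, 0 at the 500 nm high dose, 0 between the high doses and 1 between the 10 nm high and low doses. Without the replicate 3 arrays of all groups, they were 0 at the 10 nm low dose and 2 between the 500 nm high and low doses. This alternative was chosen after seeing the data. Counts over all genes are not given here for the fits on 2 groups, without the replicate 3 arrays or without 1 array. The member counts of those fits therefore cannot be set against all genes.

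Leaving out 1 array at a time gave 0 to 1 called members at the 10 nm low dose, 2 to 3 at the 10 nm mid, 10 nm high and 500 nm high doses, 0 to 0 at the 500 nm low and mid doses, 0 to 0 between the low doses and between the 10 nm mid and 500 nm high doses, 0 to 1 between the high doses, 2 to 3 between the 10 nm doses and 1 to 1 between the 500 nm doses. Each other probe set in its place gives values of a member and no count. Signs turned for Bcl2l1 at the 10 nm low dose (-0.0687 as the mean over probe sets, -0.46 and -0.33 on other probe sets), for Bcl2l11 between the 10 nm mid and 500 nm high doses (-0.33) and the high doses (-0.37) on 1426334_a_at, and for Mcl1 in the same comparisons (0.45, 0.48 and 0.47, then 0.38, 0.33 and 0.42 on 1437527_x_at, 1416880_at and 1456381_x_at). The cause was not tested. Of the named list genes, the fit on 2 groups lost Bcl2l14, Bok, Cflar, Ppp3ca, Fbxw7, Map1lc3b, Becn1, Rel, Mitf, Stat3 and Rela at the 10 nm high dose (adjusted p 0.0674 to 0.209), Birc2, Casp9, Ppp3ca, Dynll1, Becn1, Stat3 and Rela at the 500 nm high dose (0.0687 to 0.149) and the size difference of Pim1 and Mitf (0.154 and 0.103). The mean over probe sets lost Birc3 (-0.22; 0.176), Casp9 (-0.38; 0.176) and Mitf (-0.38; 0.0891) at the 10 nm high dose. At the 500 nm high dose it also lost Dffb (-0.48, limma adjusted p = 0.189), Casp9 (-0.16, 0.613) and Ppp3ca (-0.27, 0.217). Between the high doses it lost Birc3 (-0.24, 0.244) and Mitf (-0.25, 0.428) and gained Cflar (-0.49, 0.00528) and Map1lc3b (0.40, 0.00498). Quantile normalization lost Dffb (0.0534), Casp9 (0.0807) and Ppp3ca (0.138) at the 500 nm high dose. With 3 arrays per group the half-width of a 95% interval was near 0.21 for Bid and Bcl2l1 and larger for Bak1. These intervals are not adjusted for the number of genes, so changes larger than the half-width could be missed too. Bid at the 500 nm mid dose, at -0.26, was not called.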
